A study of Mus musculus with 8 samples.

Results

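Purine metabolism was followed in the medial prefrontal cortex through 10 genes that lead from nucleotides to uric acid or back: Xdh, Hprt, Pnp, Ada, Gda, Adk, Nt5e, Nt5c2, Ampd2 and Ampd3. They are 10 of the 54446 Ensembl genes in the deposited count table. Xdh was chosen because it passed the test between the 2 groups described next, and the other genes were chosen around it as enzymes of the same pathway. Their differences between the groups are therefore given as descriptions and not as tests.

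The study examined Ino80e, which encodes part of the INO80 nucleosome remodeller, in mice whose medial prefrontal cortex received an adeno-associated virus meant to change the expression of that gene. Poly(A) RNA was sequenced in 4 libraries labelled as Ino80e overexpression, against 4 from wild-type mice. The labels give no age, sex or strain, nor the promoter of the virus or any injection given to wild-type mice. Nor do the labels say that each library is a separate mouse, so the spread between libraries may be partly technical.

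Library totals ran from 47700489 to 60490153 counts in the overexpression group and from 44762378 to 55379790 counts in wild type. Ino80e was at 74.1, 23.4, 23.3 and 45.04 CPM (counts per 1000000 counts of the library, after scaling) in overexpression replicates 1 to 4, against 22.3, 19.5, 25.5 and 20.7 CPM in wild type. Overexpression replicates 2 and 3 lay inside the wild-type range, so the group is called by its label throughout. Its mean difference did not pass an exact two-sided permutation test (p = 0.114, n = 4 each, where 0.0286 is the smallest p that the design allows). Doc2a, on the opposite strand, shares 14.4% of the exon bases of Ino80e. The neuronal and glial markers checked were all detected. Summed levels of 6 choroid plexus markers were 14.0 to 107 CPM in the overexpression group and 7.88 to 1114 CPM in wild type, with the highest value in wild-type replicate 4.

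Purine nucleotides carry energy and signals in every cell, and their breakdown passes through a few branch points. AMP deaminases turn AMP into IMP, 5′-nucleotidases strip the phosphate, and adenosine deaminase and purine nucleoside phosphorylase lead on to the free bases. Hypoxanthine and guanine are then either salvaged back to nucleotides by HPRT, on which the brain relies heavily, or led through xanthine to uric acid. Guanine deaminase makes xanthine from guanine. Xanthine oxidoreductase, the product of Xdh, oxidises hypoxanthine to xanthine and xanthine to uric acid. In the extracellular space the same chemistry sets the level of adenosine, a modulator of synaptic transmission.

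On the GRCm38 build, Xdh (ENSMUSG00000024066) occupies chr17:73883895-73950196 on the minus strand, with 41 merged exons of 9175 bases. A processed pseudogene, CT025731.2, is annotated within its span on the same strand but shares 0 exon bases with Xdh and had 0 CPM in all 8 libraries. Hprt lies at chrX:52988137-53021659, Gda at chr19:21391307-21473445 and Ampd2 at chr3:108074062-108086651. Pnp lies at chr14:50931082-50965237, and its neighbour Pnp2 (chr14:50955992-50964749) is a near-identical copy within the same span. The longest open reading frames of Pnp and Pnp2 matched at 852 of 868 aligned bases (98.2%), and 425 of 821 windows of 50 bases of Pnp (51.8%) were found unchanged in Pnp2. A read from such a window cannot be assigned to one of the 2 genes. The 90-base stretch of the 2 frames that differs most is shown to make that closeness visible, with the differing bases in capitals. It covers bases 684 to 773 of the Pnp frame and 729 to 818 of the Pnp2 frame, counted from the A of the start codon on the transcript strand.
Pnp: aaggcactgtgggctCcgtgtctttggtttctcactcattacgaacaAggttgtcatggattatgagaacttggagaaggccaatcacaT
Pnp2: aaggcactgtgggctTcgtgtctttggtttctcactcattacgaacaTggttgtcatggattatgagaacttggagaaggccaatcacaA

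Gm49342, annotated on the same strand, shares 718 exon bases (18.04%) with Pnp and had 0 CPM in every library. The Pnp counts are thus uncertain in 2 ways, by the copy and by the overlap. By contrast, the frames of Ampd2 and Ampd3 matched at 65.2% of aligned bases and shared 0 windows of 50 bases. The same 0 was found for Xdh and Aox1, a relative of Xdh in the molybdenum enzyme family, whose frames matched at 63.0%.

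Promoter windows from RefSeq (GRCm38.p6, 250 bases before to 50 after the start of transcription) were found for 9 of the 10 genes, all but Xdh. The windows of Pnp and Ampd2 are shown, since these were the genes besides Xdh whose 2 groups of libraries did not overlap. They were searched on both strands for the inner letters of the interferon-stimulated response element (GAAANNGAA), the TATA box (TATAAA), the CCAAT box (CCAAT) and the GC box (GGGCGG), and matches are in capitals. The Pnp window lies at chr14:50944053-50944352 on the plus strand and the Ampd2 window at chr3:108085353-108085652 on the minus strand.
Pnp: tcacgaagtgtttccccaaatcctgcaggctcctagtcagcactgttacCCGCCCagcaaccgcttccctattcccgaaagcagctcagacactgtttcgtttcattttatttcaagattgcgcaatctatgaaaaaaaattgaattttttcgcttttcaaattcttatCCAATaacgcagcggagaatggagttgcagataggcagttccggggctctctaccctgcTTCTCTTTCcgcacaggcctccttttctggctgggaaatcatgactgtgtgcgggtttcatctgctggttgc
Ampd2: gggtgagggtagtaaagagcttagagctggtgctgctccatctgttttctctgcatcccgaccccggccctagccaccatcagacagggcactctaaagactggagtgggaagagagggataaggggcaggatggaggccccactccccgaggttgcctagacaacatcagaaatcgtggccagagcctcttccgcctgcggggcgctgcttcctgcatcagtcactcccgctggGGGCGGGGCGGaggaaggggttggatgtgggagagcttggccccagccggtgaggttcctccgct

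The Pnp window held 1 match each to the interferon element, the CCAAT box and the GC box. The Ampd2 window held 2 GC boxes that overlap each other and no other match. Among 32851 promoter windows of the mouse genome, 8.56% held the interferon letters, 13.6% the TATA letters, 37.4% CCAAT and 35.7% GGGCGG. These matches are letters in a window and not measured binding.

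Xdh was higher in all 4 libraries labelled overexpression than in any wild-type library. Its product oxidises hypoxanthine to xanthine and xanthine to uric acid, and in mammals it is known from capillary endothelium and secretory epithelium. Xdh was at 14.5, 12.1, 12.9 and 11.7 CPM in overexpression replicates 1 to 4, against 9.24, 7.30, 8.75 and 7.78 CPM in wild-type replicates 1 to 4. The lowest overexpression library stood 2.42 CPM above the highest wild-type library. The wild-type libraries spanned 1.94 CPM, and the overexpression libraries ran from 11.7 to 14.5 CPM. Since Xdh was chosen for its difference, that gap is a description and not a test. The means were 12.8 ± 1.26 CPM in the overexpression group and 8.27 ± 0.886 CPM in wild type (SD, n = 4 each). Their ratio was 1.55, and the fitted log2 fold change 0.63 (SE 0.11). These values rested on 584 to 782 reads per library in the overexpression group and on 342 to 480 reads in wild type. Both overexpression libraries with Ino80e in the wild-type range, replicates 2 and 3, were above wild type for Xdh too. Replicate 1 had the highest value of both genes, but replicate 4, with Ino80e at 45.04 CPM, had the lowest Xdh of the overexpression group. The difference that brought Xdh into the list was called by edgeR's quasi-likelihood test (adjusted p = 0.037 over 17636 genes). It was the only one of the 10 genes called. Of all genes tested, 0.034% were called in either direction, 0.0113% as higher in the overexpression group and 0.0227% as lower, shares from which nothing is read since Xdh was chosen by this call. Leaving out a single library ended that call in 7 of 8 fits, the exception being overexpression replicate 4, with log2 fold changes of 0.56 to 0.69 (adjusted p of 0.034 to 0.24).

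**Figure D1:**
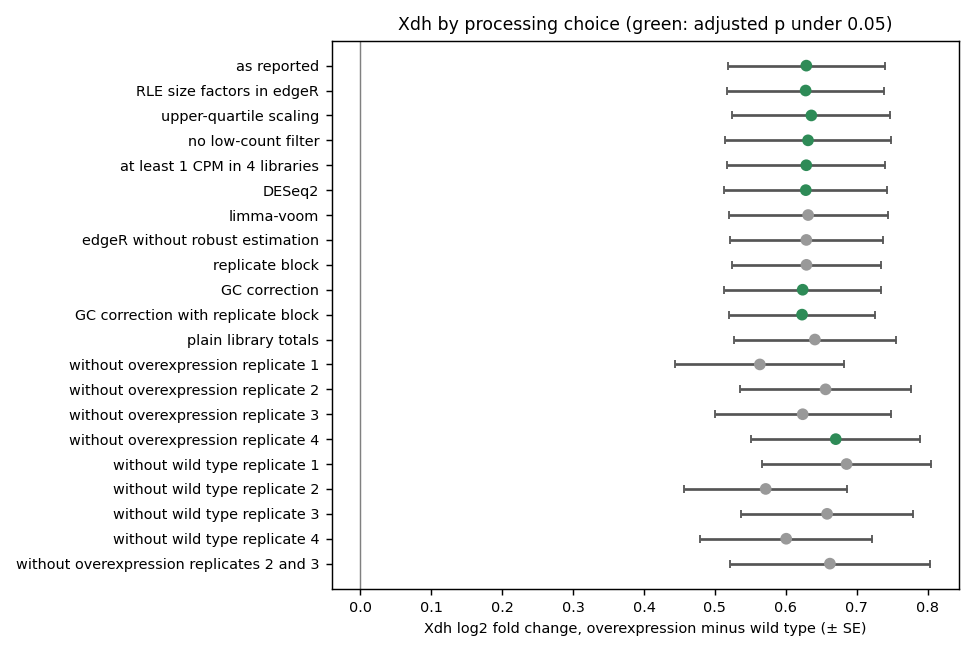
log2 fold change of Xdh, overexpression minus wild type (horizontal axis, ± SE), as reported and under 20 other processing choices (vertical axis). Green points passed the adjusted threshold and grey points did not: the value lies between 0.56 and 0.69 throughout, while the call held in 8 of 20.

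**Figure D2:**
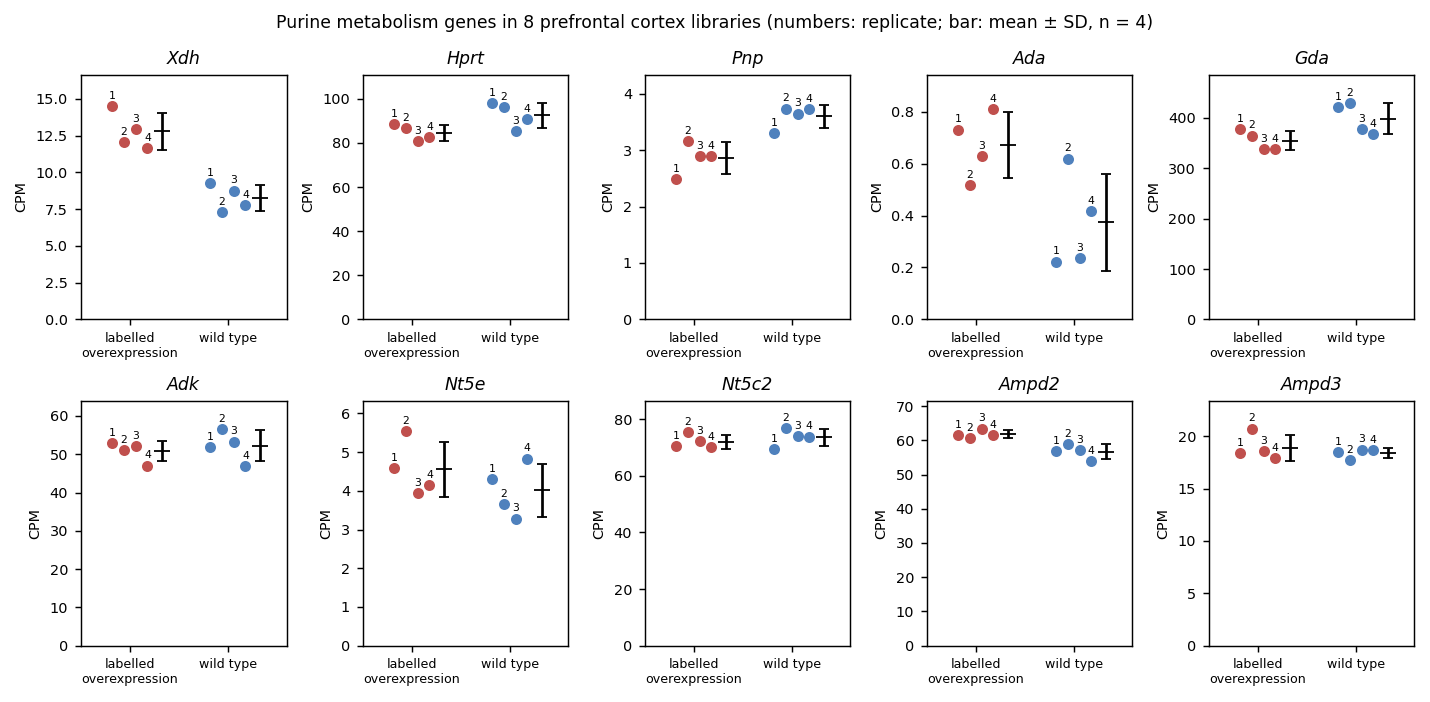
Level of each of the 10 genes in CPM (vertical axes from 0) in the 4 libraries labelled overexpression (red, left) and the 4 wild-type libraries (blue, right), with replicate numbers and the mean ± SD beside the points. The groups do not overlap for Xdh (11.7 to 14.5 against 7.30 to 9.24 CPM), Pnp and Ampd2, and overlap for the other 7 genes.

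Markers of the cell types that could carry Xdh were read beside it, and bulk libraries cannot tell more cells of a type from more RNA per cell. The 13 endothelial markers summed to 422 to 458 CPM in the overexpression group and 409 to 501 CPM in wild type, with 8 of 13 above 0 in log2 fold change and a median of 0.068. Their groups overlapped for every marker, and none was called. Over all genes tested 5.84% did not overlap and 0.034% were called, so neither count says anything particular about these markers. Xdh per 1000 CPM of endothelial markers was 26.6 to 31.7 in the overexpression group and 16.5 to 22.4 in wild type (ratio of means 1.54). The 12 microglial markers summed to 471 to 594 CPM in the overexpression group and 451 to 515 CPM in wild type, with 8 of 12 above 0 (median log2 fold change 0.16). The 6 markers of meningeal fibroblasts summed to 74.1 to 89.0 CPM in the overexpression group and 57.2 to 82.9 CPM in wild type, with 5 of 6 above 0. Xdh per microglial signal was higher by a ratio of 1.42, without overlap, and per fibroblast signal by a ratio of 1.28, with overlap. Per signal of pericytes, astrocytes, oligodendrocytes or neurons the ratio was 1.48 to 1.65 without overlap. Per signal of choroid plexus or striatal markers the groups overlapped. Each of these ratios carries over the difference for which Xdh was chosen, so nothing is read from their separation. The part of these cells in the Xdh difference was not tested. No marker of these lists was at 0 in all libraries.

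Interferon-stimulated genes were set beside Xdh because its transcript is known to be inducible by interferon in mice. The 10 genes of that list summed to 144, 55.1, 42.3 and 46.5 CPM in overexpression replicates 1 to 4, against 46.6, 38.7, 47.4 and 54.7 CPM in wild type. All 10 had a log2 fold change above 0 (median 0.91) and none was called, where 0.034% of all genes tested were called. The high sum was that of replicate 1. Xdh was also highest there. Overexpression replicates 2 to 4, with interferon sums of 42.3 to 55.1 CPM against 38.7 to 54.7 CPM in wild type, had 11.7 to 12.9 CPM of Xdh. Xdh per 1000 CPM of these 10 genes was 100 to 305 in the overexpression group and 142 to 198 in wild type. The groups overlapped (ratio of means 1.23), and the lowest value was that of overexpression replicate 1. Without replicate 1 the Xdh log2 fold change was 0.56 (SE 0.12) and missed the threshold (edgeR adjusted p = 0.21). The part of interferon in the Xdh difference was not tested.

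Genes with the most similar course over the 8 libraries were ranked by the root mean square difference from Xdh in log2 CPM (prior count 2), each set to its own wild-type mean, among 14298 other genes of at least 1 CPM. The closest were Psg16 (0.13), Csf2ra (0.14), Loxl3 (0.16), Fbln1 (0.16) and Mgp (0.16). Csf2ra encodes a subunit of the receptor for granulocyte-macrophage colony-stimulating factor, and Fbln1 and Mgp encode proteins of the extracellular matrix. Fbln1 was at 19.8, 18.4, 15.7 and 16.1 CPM in the overexpression group and at 12.7, 11.9, 14.0 and 12.4 CPM in wild type. Csf2ra was at 12.9, 11.4, 12.2 and 13.2 CPM in the overexpression group and at 10.5, 7.60, 9.67 and 7.66 CPM in wild type. All 5 were higher in each overexpression library than in any wild-type library, as 2.82% of all genes tested were. Since they were ranked by closeness to Xdh over these same libraries, that separation was fixed by the choice and is no result about them.

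**Figure D3:**
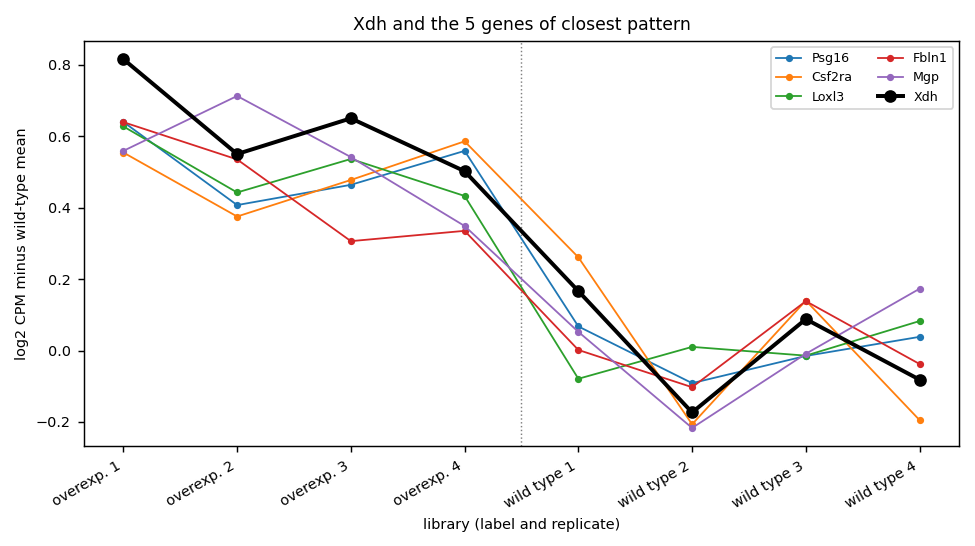
log2 CPM minus the gene's own wild-type mean (vertical axis) for Xdh (black) and the 5 genes of closest course in the 8 libraries, overexpression at the left and wild type at the right. All 6 lines lie higher in the 4 libraries labelled overexpression, which the choice fixed: Xdh was chosen for this difference and the other 5 for their closeness to it.

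Of the enzymes that compete with Xdh for its substrates, or feed it, Hprt, Gda and Pnp had lower means in the overexpression group. Hprt, which salvages hypoxanthine and guanine to IMP and GMP, was at 88.5, 86.6, 80.7 and 82.8 CPM in the overexpression group and at 97.9, 96.1, 85.4 and 90.9 CPM in wild type. The groups overlapped, with the overexpression mean at 84.6 ± 3.56 CPM and the wild-type mean at 92.6 ± 5.66 CPM (SD, n = 4 each). Its log2 fold change was -0.13 (SE 0.055). Xdh reads per 100 Hprt reads were 16.4, 13.9, 16.0 and 14.1 in the overexpression group and 9.44, 7.60, 10.3 and 8.56 in wild type. The ratio of the group means of these per-library values was 1.69. It carries over the difference for which Xdh was chosen, so nothing is read from it about salvage.

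Gda encodes guanine deaminase (cypin), which makes xanthine from guanine and is known in rat neurons for a role in dendrite branching. It was at 378, 365, 339 and 339 CPM in the overexpression group and at 421, 429, 378 and 367 CPM in wild type. The highest overexpression library exceeded the 2 lowest wild-type libraries, so the groups overlapped. The means were 355 ± 19.7 CPM in the overexpression group and 399 ± 30.7 CPM in wild type (SD, n = 4 each), and the log2 fold change was -0.17 (SE 0.055).

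Pnp, which splits inosine and guanosine into base and sugar phosphate, was lower in each overexpression library than in any wild-type library. It was at 2.48, 3.16, 2.89 and 2.89 CPM in the overexpression group and at 3.30, 3.74, 3.65 and 3.72 CPM in wild type, from 129 to 175 reads per library in the overexpression group and 148 to 200 in wild type. The log2 fold change was -0.34 (SE 0.18). Its copy Pnp2 was at 0.212, 0.289, 0.0661 and 0.218 CPM in the overexpression group and at 0.423, 0.171, 0.419 and 0.713 CPM in wild type, with a log2 fold change of -1.15 (SE 0.58) and overlapping groups. Both were lower on average, at read numbers where the division between the 2 copies is unknown. Over all genes tested, 3.02% lay wholly below wild type in the overexpression libraries, 2.82% wholly above and 5.84% either way, and among the 10 genes 1 lay below (Pnp) and 2 above (Xdh and Ampd2). Nothing is read from these counts, since the genes were chosen with this contrast known.

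The enzymes that handle adenosine varied without a common direction. Ada, which deaminates adenosine to inosine, was the least abundant of the 10 genes, at 0.731, 0.516, 0.628 and 0.811 CPM in the overexpression group and at 0.223, 0.619, 0.237 and 0.416 CPM in wild type. Its log2 fold change of 0.84 was the highest of the list but had an SE of 0.45, from 25 to 41 reads per library in the overexpression group and 10 to 29 in wild type. Adk, the kinase that returns adenosine to AMP, was at 53.0, 51.1, 52.2 and 47.0 CPM in the overexpression group and at 51.9, 56.6, 53.3 and 47.0 CPM in wild type. The 2 groups covered nearly the same range, and its log2 fold change was -0.038 (SE 0.063). Nt5e, the ecto-5′-nucleotidase CD73 that forms adenosine outside the cell, was at 4.60, 5.54, 3.93 and 4.15 CPM in the overexpression group and at 4.30, 3.65, 3.28 and 4.83 CPM in wild type. Its groups overlapped widely (log2 fold change 0.18, SE 0.17). Single libraries moved this value, which was 0.074 without overexpression replicate 2, 0.094 without wild-type replicate 3 and 0.28 without wild-type replicate 4.

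Among the enzymes of AMP and IMP, Ampd2 differed by a small amount. Ampd2, an AMP deaminase, was at 61.5, 60.6, 63.4 and 61.4 CPM in the overexpression group and at 56.8, 59.0, 57.1 and 53.9 CPM in wild type. The groups did not overlap, although the means of 61.7 ± 1.19 CPM in the overexpression group and 56.7 ± 2.10 CPM in wild type (SD, n = 4 each) differed by only 8.86%. The log2 fold change was 0.12 (SE 0.052), and 0.033 (SE 0.053) after the GC correction described below. Over all genes tested 5.84% lay wholly above or below wild type, so nothing is read from the separation of Ampd2. An antisense transcript, Gm12500, shares 434 exon bases (8.31%) with it and averaged 0.736 ± 0.282 CPM in the overexpression group and 0.698 ± 0.0584 CPM in wild type (SD, n = 4 each). Its paralogue Ampd3 was at 18.3, 20.7, 18.6 and 17.9 CPM in the overexpression group and at 18.4, 17.7, 18.7 and 18.6 CPM in wild type (log2 fold change 0.040, SE 0.081). Nt5c2, a cytosolic nucleotidase acting on IMP and GMP, was at 70.6, 75.5, 72.1 and 70.04 CPM in the overexpression group and at 69.4, 76.9, 74.1 and 73.9 CPM in wild type (log2 fold change -0.030, SE 0.053). The coefficient of variation of Nt5c2 was 3.40% in the overexpression group and 4.18% in wild type. That of Ampd3 was 6.58% in the overexpression group and 2.51% in wild type. On the opposite strand Rnf141 shares 195 exon bases with Ampd3 and Ina shares 456 with Nt5c2. The strand setting of the counting is unknown here, so reads from such overlaps cannot be told apart.

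Levels were compared between genes per length, as CPM per 1000 bases of merged exon. Hprt averaged 65.7 ± 2.76 in the overexpression group and 71.8 ± 4.39 in wild type, and Gda 56.96 ± 3.16 in the overexpression group and 64.0 ± 4.92 in wild type (SD, n = 4 each). Hprt was above Gda within each of the 8 libraries, but their ranges over the libraries overlapped. Ampd2 followed at 11.8 ± 0.228 in the overexpression group and 10.9 ± 0.403 in wild type. Nt5c2 (6.53 ± 0.222 in the overexpression group, 6.67 ± 0.278 in wild type) and Adk (5.96 ± 0.311 in the overexpression group, 6.12 ± 0.471 in wild type) were not separated beyond their ranges, and Ampd3 stood at 3.36 ± 0.221 in the overexpression group and 3.27 ± 0.0819 in wild type. The lowest levels were those of Xdh, Pnp, Nt5e and Ada. Xdh averaged 1.39 ± 0.137 in the overexpression group and 0.902 ± 0.0965 in wild type, and Pnp 0.718 ± 0.0704 in the overexpression group and 0.905 ± 0.0520 in wild type. Xdh exceeded Pnp in 4 of 4 overexpression libraries and in 2 of 4 wild-type libraries and their ranges overlapped over the 8 libraries. In both groups Xdh was thus far less abundant per length than Hprt and Gda. Nt5e (0.529 ± 0.0825 in the overexpression group, 0.467 ± 0.0799 in wild type) was above Ada (0.335 ± 0.0637 in the overexpression group, 0.187 ± 0.0928 in wild type) in all 8 libraries.

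The sign of the log2 fold change, but not its size, went with the transcript GC content of the 10 genes. Ampd2 had the highest GC content and stood at 0.12, whereas Ada at 53.8% stood at 0.84. The genes were chosen with this contrast known. The 5 genes of lowest GC content (Adk, Hprt, Gda, Pnp and Nt5c2, 37.5% to 46.55%) all had a log2 fold change below 0, and the 5 of highest GC content (Nt5e, Xdh, Ampd3, Ada and Ampd2, 48.0% to 56.8%) all had one above 0. After each library's GC trend over all genes was taken out by a spline, Hprt went to a log2 fold change of -0.031 (SE 0.048), Gda to -0.088 (SE 0.051) and Ampd2 to 0.033 (SE 0.053). Adk changed sign to 0.073 (SE 0.061), as did Nt5c2 to 0.0081 (SE 0.050). The correction moved Adk, Hprt and Ampd2 by more than the spread between their replicates. Xdh stayed at 0.62 (SE 0.11), Pnp at -0.29 (SE 0.18) and Ada at 0.78 (SE 0.45). The part of GC content in the differences between the groups was not tested.

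**Figure D4:**
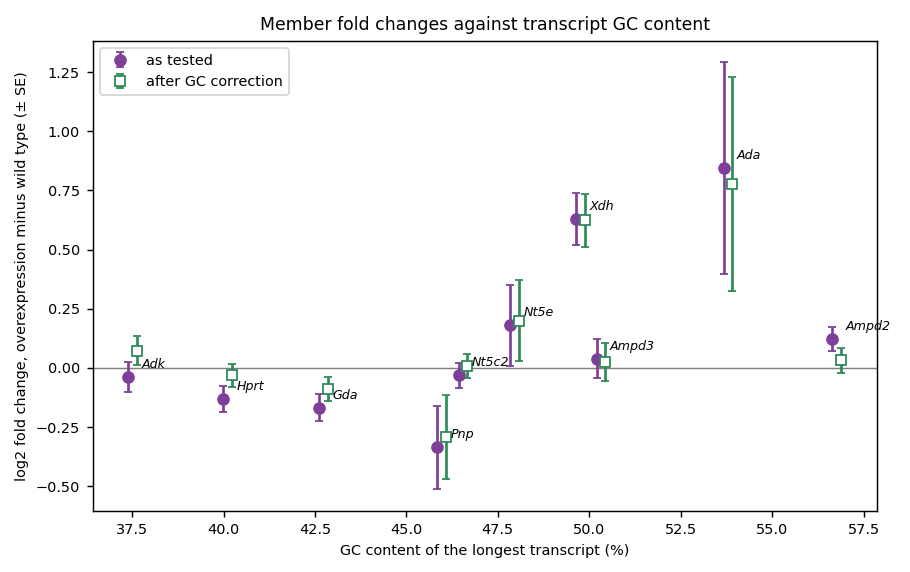
log2 fold change, overexpression minus wild type (vertical axis, ± SE), of the 10 genes against the GC content of the longest transcript in percent (horizontal axis), as tested (purple circles) and after GC correction (green squares). Hprt, Gda, Adk and Ampd2 move toward or past 0 with the correction, while Xdh stays at 0.62.

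The wider pathway was read from 72 further purine genes in 7 lists, of which 68 passed the filter on low counts. edgeR called 0 of them, as did DESeq2 and limma-voom. With 0.034% of all genes called by edgeR, a count of 0 in this or any of the 7 lists says nothing particular about its genes. At an unadjusted p under 0.05 there were 1 higher (Gmpr) and 4 lower (Prps2, Gmps, Nt5c3 and Gphn), where 10.7% of all genes tested lay under that limit in either direction. Of the 68 genes 41 lay above 0 and 27 below, where 8905 of all 17636 genes tested lay above 0 and 8731 below. Their median log2 fold change was 0.034, and that of all genes tested was 0.0016. Ampd1, Aox2, Slc28a2 and Slc28a3 had too few reads to be tested.

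De novo synthesis, which builds IMP from phosphoribosyl pyrophosphate, had 5 of 10 genes above 0 (median log2 fold change 0.028). Prps2, a phosphoribosyl pyrophosphate synthetase, was at 30.4, 26.4, 29.9 and 29.6 CPM in the overexpression group and at 32.9, 31.2, 32.05 and 33.7 CPM in wild type. Its groups did not overlap, yet its log2 fold change of -0.16 (SE 0.069) did not pass (edgeR adjusted p = 0.42). Of the 68 genes, 2 lay wholly below wild type (Prps2 and Adss) and 1 wholly above (Dguok). Over all genes tested 5.84% lay wholly either way, so nothing is read from that separation. Prps1, the most abundant of this list per length, stood at -0.12 (SE 0.061), and Prpsap1, a synthetase-associated protein, at 0.15 (SE 0.076).

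In the AMP and GMP branches 7 of 13 tested genes were above 0. Gmpr, the GMP reductase that leads GMP back to IMP, had the lowest adjusted p of the 68 genes (log2 fold change 0.20, SE 0.075, edgeR adjusted p = 0.36). Gmps, the GMP synthetase that works in the opposite direction, had a log2 fold change of -0.17 (SE 0.068, edgeR adjusted p = 0.40). Neither passed, and both had overlapping groups. Adssl1, an adenylosuccinate synthetase, stood at 0.17 (SE 0.089) and the brain adenylate kinase Ak5 at -0.092 (SE 0.053).

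Salvage enzymes and nucleotidases had 10 of 14 genes above 0 (median log2 fold change 0.084). Nt5c3, a pyrimidine nucleotidase, stood at -0.16 (SE 0.075), its paralogue Nt5c3b at 0.16 (SE 0.081), and Itpa, which removes ITP, at 0.056 (SE 0.077). None of these passed (edgeR adjusted p of 0.46 to 0.82).

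Of the 11 tested enzymes of uric acid breakdown and relatives and cofactor genes of Xdh, 7 were above 0 (median log2 fold change 0.036). Gphn, which encodes gephyrin, a scaffold of inhibitory synapses that also inserts the molybdenum required by xanthine oxidoreductase, was at 59.1, 54.6, 62.1 and 59.0 CPM in the overexpression group and at 66.3, 66.1, 59.2 and 66.2 CPM in wild type. Its log2 fold change was -0.13 (SE 0.057, edgeR adjusted p = 0.41). The aldehyde oxidases Aox3 (log2 fold change 0.32, SE 0.22) and Aox4 (0.66, SE 0.47), of the same enzyme family as Xdh, were above 0 with large errors.

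Of the 8 genes listed under extracellular nucleotide hydrolysis, Enpp2 (autotaxin) had the lowest unadjusted p and the highest level. It was at 229, 257, 325 and 256 CPM in the overexpression group and at 279.9, 273, 336 and 912 CPM in wild type (log2 fold change -0.76, SE 0.45, edgeR adjusted p = 0.58). The high library, wild-type replicate 4, was also the one with 1114 CPM of choroid plexus markers, and their part in the value was not tested. Enpp3 (log2 fold change -0.51, SE 0.53) and Alpl, tissue-nonspecific alkaline phosphatase (-0.056, SE 0.085), did not pass either.

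Among nucleoside and urate transporters, the equilibrative transporter gene Slc29a1 stood at 0.20 (SE 0.12) in log2 fold change and Slc29a3, the most abundant per length, at 0.081 (SE 0.091). Slc29a4 was at 4.55 to 5.41 CPM in the overexpression group and 4.01 to 12.5 CPM in wild type, again highest in wild-type replicate 4. Slc28a1, of the concentrative type, stood at 0.53 (SE 0.47). Of the 8 tested transporters 6 were above 0 (median log2 fold change 0.090).

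Of the 4 adenosine receptor genes 3 were above 0 (median log2 fold change 0.11). The inhibitory receptor gene Adora1 was at 194, 185, 199 and 201 CPM in the overexpression group and at 162, 190.2, 179 and 191 CPM in wild type, with a log2 fold change of 0.11 (SE 0.055, edgeR adjusted p = 0.47). Adora2a, a receptor of striatal neurons, was at 2.54, 13.4, 14.8 and 21.1 CPM in the overexpression group and at 11.1, 8.27, 4.45 and 18.2 CPM in wild type. The sums of 6 striatal markers were lowest where Adora2a was lowest in each group, at 155 CPM in overexpression replicate 1 and 161 CPM in wild-type replicate 3, and their part was not tested. Adora3 stood at -0.41 (SE 0.44).

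**Figure D5:**
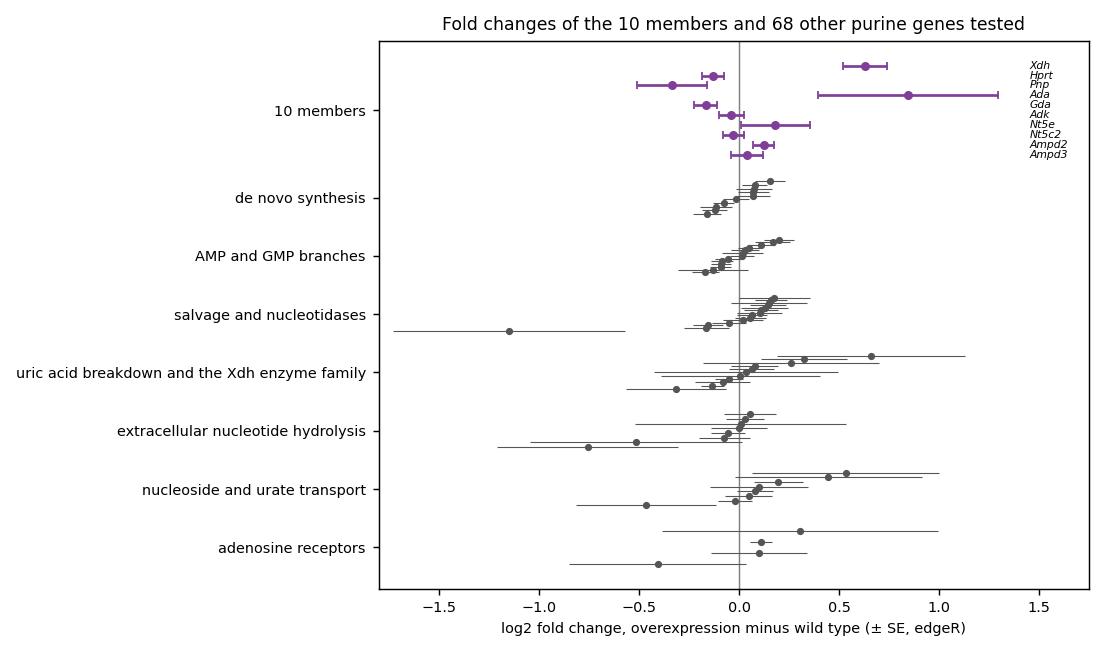
log2 fold change, overexpression minus wild type (horizontal axis, ± SE), of the 10 genes (purple, names at the right) and of the 68 other purine genes tested (grey), grouped by role. Xdh lies at 0.63 (SE 0.11), and genes further out than that, such as Ada, Enpp2 and Pnp2, have an SE of 0.448 or more.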

How the data were processed

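Raw read counts of 54446 Ensembl genes in 8 libraries were deposited in a single table by the authors. Of these IDs 54409 had a symbol in GENCODE M21 (GRCm38). Libraries were strand-specific by the dUTP method, per the labels' protocols. The submitters' processing notes name Trimmomatic 0.39, STAR 2.7.10, featureCounts 2.0.3, mm10 and GRCm38. Neither the strand setting of the counting nor its handling of multiply mapped reads is stated there.

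Genes were filtered with filterByExpr (17636 left), scaled by TMM and tested with edgeR 4.0.16 (R 4.3.3), robust quasi-likelihood F test, Benjamini-Hochberg adjusted p under 0.05. CPM uses the TMM-scaled library size, and a fold change is overexpression minus wild type on the log2 scale. The SE is the fold change divided by the root of F. Alternatives included DESeq2 1.42.0, limma-voom (limma 3.58.1), a replicate block, a GC spline and leaving out libraries. The test was tested on simulated data. No 2 libraries were copies (chi-square per degree of freedom at least 9.25 over 28 pairs).

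The members and lists were chosen with earlier results of these data known. The text names all 10 members, and in each further list any called gene, the 3 of lowest p and the 1 of highest level per length. It also names the 5 genes closest to Xdh, and overlapping genes or copies.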

Additional observations from a re-analysis of the deposited data

Results flagged for a closer look

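A library that lay far from the other 3 of its group was found for 6 of the 100 groups of 4 values examined, where chance gives about 1 in 20. None of these concerned the 10 genes themselves. Gphn was low in wild-type replicate 3 (59.2 CPM, the others 66.1 to 66.3). Enpp2 was high in wild-type replicate 4 (912 CPM, the others 273 to 336). The choroid plexus markers were high in overexpression replicate 3 (107 CPM, the others 14.0 to 17.3) and in wild-type replicate 4 (1114 CPM, the others 7.88 to 107). The interferon-stimulated genes were high in overexpression replicate 1 (144 CPM, the others 42.3 to 55.1), the library with the highest Xdh and the lowest Pnp. The oligodendrocyte markers were low in the same library (4202 CPM, the others 5782 to 6100).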

How the results depend on the processing

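The log2 fold change of Xdh was above 0 in all 20 alternatives run (0.56 to 0.69), and its call held in 8. It missed the threshold with limma-voom (log2 0.63, adjusted p = 0.11), in edgeR without robust estimation (log2 0.63, adjusted p = 0.11), with the replicate block (log2 0.63, adjusted p = 0.053), with plain library totals, a setting chosen for calls after seeing the data (log2 0.64, adjusted p = 0.052), and without overexpression replicates 2 and 3, whose Ino80e was in the wild-type range (log2 0.66, adjusted p = 0.30). With 1 library left out it ranged from 0.56 to 0.69 (adjusted p of 0.034 to 0.24) and passed only without overexpression replicate 4. With the GC correction and the replicate block together it passed (adjusted p = 0.0499). Same-numbered libraries did not deviate together (correlations of -0.071 to 0.077), so the numbers are not taken to pair them. The cause of these changes was not tested.

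The count of genes called was 6 (2 higher and 4 lower), and 83 with no low-count filter, 44 with DESeq2, 2 with limma-voom, 2 without robust estimation, 1 with the replicate block, 1 (lower) with plain library totals, 1 without overexpression replicates 2 and 3, and 1 to 8 with 1 library left out. No other purine gene was called under any alternative. Of the 5 genes closest to Xdh, 3 remained with a minimum of 5 CPM. The higher minimum left the distances unchanged and only dropped genes by level, so it is no check of their closeness. Among the members without a call, Hprt, Gda and Pnp stayed below 0 and Ada, Nt5e and Ampd2 above 0 in every alternative run, while Adk, Nt5c2 and Ampd3 changed sign in some. Ada gave no value with a minimum of 1 CPM in 4 libraries. The GC correction moved Hprt to -0.031, Ampd2 to 0.033 and Adk to 0.073.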
